A study of Mus musculus with 7 samples.

Results

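Kupffer cells, monocytes and other macrophages of the liver were followed through 44 genes, of the 56691 genes counted in mouse liver. The genes were taken by symbol from a written list with 4 groups, namely 8 resident Kupffer cell genes, 15 pan-macrophage genes, 4 monocyte genes and 17 activation genes. Each of the 44 symbols had a row of counts, and 41 were among the 13683 genes with enough reads to be tested. The exceptions were Xlr, Trem2 and Ctsk, with 74, 24 and 53 reads over the 7 mice.

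Liver RNA with poly(A) tails was sequenced from 4 control mice and 3 mice given lipopolysaccharide (LPS), a component of the outer membrane of Gram-negative bacteria that macrophages sense through Toll-like receptor 4. Both groups were male C57BL/6J mice, an inbred strain, bought at 8 weeks of age and housed for 2 weeks. The LPS group received 10 mg/kg into the peritoneal cavity, and livers were taken 24 h later. What the controls were injected with is not stated in the labels. The study formed groups of 6 mice, of which these are the sequenced animals. Each library held 14991022, 15096573, 15721944 and 18584140 counts in control mice 1 to 4, and 20500391, 17095607 and 17821331 counts in LPS mice 1 to 3.

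Kupffer cells are the macrophages that sit in the liver sinusoids, where they take up bacteria, particles and aged red blood cells from the blood. They are seeded before birth and largely maintain themselves by division, and they carry surface receptors such as CLEC4F and TIM-4 that newly arrived cells lack at first. Monocytes made in the bone marrow enter the inflamed liver, carry Ly6C, and can turn into macrophages there. Many of the 44 genes are also active in other liver cells: Mrc1 in sinusoidal endothelium, Spp1 and Cd9 in bile duct cells, Csf1 in stellate and endothelial cells, Cd53 in leukocytes of most kinds, and Fcgr3, Fcer1g, Tyrobp, Slc11a1, Pirb, Csf2rb, Plac8, Cd44 and S100a4 in neutrophils.

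The libraries were not equally alike within the LPS group. Over the 2386 genes with at least 500 counts in every mouse, the SD of the log2 ratio between LPS mice 2 and 3 was 0.119, against 0.278 and 0.276 for LPS mouse 1 with each of them and 0.249 to 0.497 for pairs of controls. LPS mouse 1 was the highest of the 3 LPS mice in 36 of the 41 tested members (87.8%), against 36.2% of the 13683 genes, and it was more than 2-fold above both others in 14 members (34.1%), against 4.69%. The shift was not the same in each group: the median ratio of LPS mouse 1 to the mean of LPS mice 2 and 3 was 5.61 in the resident group, 1.73 in the pan-macrophage group, 1.63 in the activation group and 0.736 in the monocyte group, against 0.985 over the genes tested. Mitochondrial genes took 23.7%, 14.6%, 7.48% and 8.96% of the counts in control mice 1 to 4 and 6.45%, 3.83% and 3.94% in LPS mice 1 to 3. When library sizes were computed without mitochondrial genes and the most abundant other genes, 25 members rose and 2 fell, the same numbers as with them. Over the 13683 genes, 1078 then rose and 995 fell. LPS mice 2 and 3 are labelled as separate samples, but whether they come from separate animals was not tested, and the p-values count them as 2 of 3 independent LPS mice. In fits without LPS mouse 1 they are the whole LPS group, so the p-values of those fits hold only if the 2 are separate animals. Calls of members that change without LPS mouse 1, or with mice 2 and 3 summed into 1 sample, are given with the gene.

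Macrophage and monocyte genes were mostly higher after LPS, while most resident Kupffer cell genes were not called. A gene is said to have risen or fallen where edgeR's quasi-likelihood test gave a Benjamini-Hochberg adjusted p below 0.05 over the 13683 genes and the log2 fold change of LPS over control exceeded 1 in size. By that rule 25 of the 41 tested members rose and 2, Clec4f and Mrc1, fell, with 14 not called. Over the 13683 genes, 7.81% rose and 7.31% fell. The median log2 fold change was 1.52 over the tested members and -0.014 over the genes tested. The members were chosen with earlier results of these data known, so these contrasts describe the list and do not test it. In 26 members all LPS mice were above all controls and in 2 all were below, which held for 18.1% and 17.4% of the genes. By group, 1 of 7 tested resident genes, 10 of 15 pan-macrophage genes, 4 of 4 monocyte genes and 10 of 15 tested activation genes rose, with median log2 fold changes of 0.19, 1.52, 2.54 and 1.79. Without LPS mouse 1, 22 members rose and 5 fell, beside 6.96% and 7.53% of the 13975 genes then tested. All 22 were among the 25, and Timd4, Vsig4 and Cd5l joined the 2 that fell. Those 3 falls rest on LPS mice 2 and 3 alone. With LPS mice 2 and 3 summed, 24 rose and 2 fell, beside 6.89% and 5.76% of 14228 genes. In that fit Timd4, Vsig4 and Cd5l were not called (adjusted p = 0.639, 0.354 and 0.868). Whole liver was sequenced, so fewer cells of a type and less RNA per cell cannot be told apart.

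Among the resident Kupffer cell genes Clec4f fell and Marco rose, and in several of the others LPS mouse 1 and LPS mice 2 and 3 lay on different sides of the control mean. Levels are given as CPM, counts relative to a library size that is scaled between mice. Clec4f (ENSMUSG00000014542), a C-type lectin restricted to Kupffer cells in the mouse, was at 47.5, 69.9, 57 and 43.4 CPM in control mice 1 to 4 and at 24.1, 5.48 and 7.28 CPM in LPS mice 1 to 3. Every LPS mouse was below every control, at 44.3%, 10.1% and 13.4% of the control mean, and mice 2 and 3 were far lower than mouse 1. Clec4f fell (log2 fold change -2.13, SE 0.41, adjusted p = 0.00216), and without LPS mouse 1 its log2 fold change was -3.09 (adjusted p = 4.91e-06). Marco (ENSMUSG00000026390), a scavenger receptor that binds bacteria, went the other way, from 2.48, 5.55, 4.34 and 2.37 CPM in controls to 409.7, 66.5 and 65.6 CPM in the LPS mice. All 3 LPS mice were above the controls, 111, 18 and 17.8 times the control mean, with mouse 1 at 6.2 times the mean of the others. Marco rose (log2 fold change 5.62, SE 0.63, adjusted p = 3.3e-05), and without LPS mouse 1 the value was 4.17 (adjusted p = 8.32e-07).

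Timd4 (ENSMUSG00000055546), which encodes TIM-4, a receptor for phosphatidylserine on dying cells, gave 4.53, 4.54, 5.25 and 1.98 CPM in the controls and 12.9, 0.0644 and 0.623 CPM in the LPS mice. The value in LPS mouse 2 is 1 read, while LPS mouse 1 was above all controls, so the groups overlap and the call rests on that mouse. Timd4 was not called (log2 fold change 0.19, SE 0.91, adjusted p = 0.911). Without LPS mouse 1 it fell, with a log2 fold change of -3.52 (adjusted p = 0.00416), and without control mouse 4 the value was -0.052 (adjusted p = 0.976). Cd5l (ENSMUSG00000015854), which encodes a secreted scavenger receptor protein that promotes macrophage survival, had the same arrangement, with 24.1, 45, 40.1 and 25.9 CPM in controls and 75.8, 4.9 and 3.3 CPM in the LPS mice. LPS mouse 1 was above every control and the other LPS mice below every control. Its log2 fold change was -0.26 (SE 0.76, adjusted p = 0.844) in 7 mice and -3.04 (adjusted p = 3.68e-05) without LPS mouse 1. Without LPS mouse 2 it was 0.24 (adjusted p = 0.869) and without LPS mouse 3 0.27 (adjusted p = 0.845).

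Vsig4 (ENSMUSG00000044206), the complement receptor CRIg that captures opsonized bacteria, was at 8.63, 12.1, 11.9 and 9.39 CPM in controls and 10.9, 3.61 and 1.93 CPM in the LPS mice. LPS mouse 1 lay among the controls and mice 2 and 3 below them. Vsig4 was not called (log2 fold change -0.92, SE 0.43, adjusted p = 0.144), and without LPS mouse 1 it fell, at -1.92 (adjusted p = 0.00107). The haemoglobin-haptoglobin receptor Cd163 (ENSMUSG00000008845) measured 4.6, 8.58, 7.76 and 5.86 CPM and then 13.4, 7.73 and 6.85 CPM, with LPS mouse 1 highest and the others among the controls (log2 fold change 0.48, SE 0.29, adjusted p = 0.246). The folate receptor gene Folr2 (ENSMUSG00000032725) was low throughout, at 0.425, 0.757, 1.28 and 1.26 CPM and 2.49, 0.451 and 0.436 CPM. Again LPS mouse 1 was the highest mouse and the groups overlap (log2 fold change 0.29, adjusted p = 0.803). Without that mouse the value was -1.07 (adjusted p = 0.354). Xlr (ENSMUSG00000054626), a lymphocyte-regulated gene on the X chromosome, had too few reads for the edgeR fit of all 7 mice, at 0.566, 0.505, 0.733 and 0.0968 CPM and 1.61, 0.193 and 0.373 CPM. It was not called with LPS mice 2 and 3 summed (log2 fold change 0.99, adjusted p = 0.509) or with DESeq2 (0.65, adjusted p = 0.693). DESeq2 gave Marco and Timd4 no adjusted p, so that Marco was not called by it. Over the alternatives that gave one, the adjusted p was at most 0.0146 for Clec4f and 0.000476 for Marco. It ran from 0.00416 to 0.976 for Timd4, 3.68e-05 to 0.958 for Cd5l and 0.00107 to 0.386 for Vsig4.

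Summed over the 8 resident genes, the level was 92.8, 147, 128 and 90.3 CPM in the controls and 551, 88.9 and 86.4 CPM in LPS mice 1 to 3. Marco makes up most of the sum after LPS. For the other 7 genes, a sum chosen after the values were seen, it was 90.4, 141.4, 124 and 87.9 CPM in the controls and 141.1, 22.4 and 20.8 CPM in the LPS mice. LPS mouse 1 was thus close to the highest control, and mice 2 and 3 were below the lowest. Markers of other sinusoidal cells did not share one direction: of 7 tested sinusoidal endothelial genes, Lyve1 and Pecam1 rose and Clec4g fell (1 rise and 2 falls without LPS mouse 1, and 2 falls also without control mouse 1 or 3), and their summed level was 109, 141, 93 and 124 CPM in controls and 139, 79.9 and 79.7 CPM after LPS. The part of endothelial RNA in the resident genes was not tested.

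**Figure D1:**
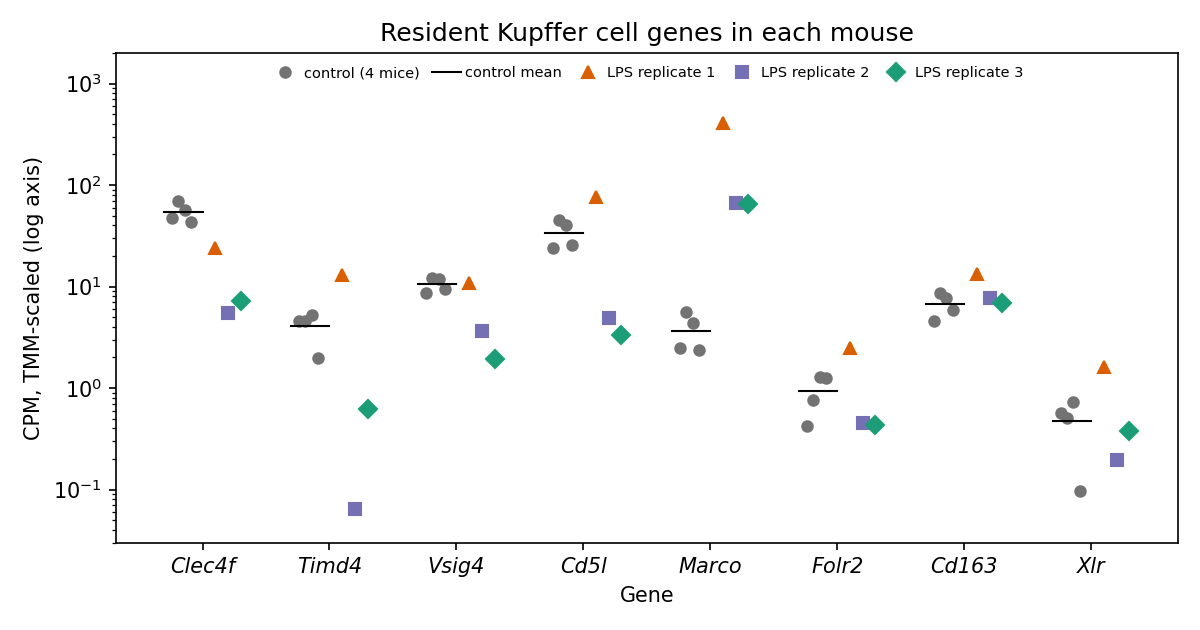
Level of the 8 resident Kupffer cell genes in each mouse, in CPM on a log axis. Grey points are the 4 controls, black lines their mean and coloured points the 3 LPS mice. LPS mouse 1 is the highest LPS mouse in every gene drawn, Clec4f is below the controls in all LPS mice (24.1, 5.48 and 7.28 CPM), and Marco is above them (409.7, 66.5 and 65.6 CPM).

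Of the 15 pan-macrophage genes 10 rose, Mrc1 fell, and Csf1r, Aif1, Mertk and Axl were not called. Adgre1 (ENSMUSG00000004730), which encodes the F4/80 antigen used to stain mouse macrophages, was at 2.33, 4.92, 4.77 and 4.26 CPM in controls and 18.7, 8.63 and 10.2 CPM in LPS mice. The groups do not overlap, LPS mouse 1 is highest, and Adgre1 rose (log2 fold change 1.62, SE 0.31, adjusted p = 0.00223). Csf1r (ENSMUSG00000024621), the receptor for CSF1 and IL-34 on which Kupffer cells depend, measured 13.1, 18.1, 18.6 and 10.3 CPM in controls against 36.9, 13.1 and 14.9 CPM in LPS mice. Here LPS mouse 1 was above the controls and mice 2 and 3 were among them. Csf1r was not called (log2 fold change 0.53, SE 0.33, adjusted p = 0.261), and without LPS mouse 1 its log2 fold change was -0.094 (adjusted p = 0.83). Lyz2 (ENSMUSG00000069516), the macrophage and neutrophil lysozyme, was at 30.4, 36, 40.4 and 19.1 CPM in controls and 84.4, 69.2 and 74.1 CPM after LPS. The LPS mice were close to each other and above the controls, at 2.68, 2.2 and 2.35 times their mean, and Lyz2 rose (log2 fold change 1.27, SE 0.21, adjusted p = 0.000757).

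Spi1 (ENSMUSG00000002111), which encodes PU.1, the transcription factor that specifies macrophages and other myeloid cells, was at 2.83, 2.08, 2.63 and 0.823 CPM in controls and 13.2, 8.31 and 7.66 CPM after LPS. The lowest LPS mouse was above the highest control, and Spi1 rose (log2 fold change 2.24, SE 0.37, adjusted p = 0.00074). Cd68 (ENSMUSG00000018774), a glycoprotein of endosomes and lysosomes, was at 2.62, 1.58, 3.36 and 2.9 CPM in controls and 21, 8.63 and 7.16 CPM in the LPS mice. It rose in each LPS mouse and most in mouse 1 (log2 fold change 2.23, SE 0.38, adjusted p = 0.000815), with 1.59 (adjusted p = 0.00489) when mouse 1 is left out. Cd53 (ENSMUSG00000040747), a tetraspanin of leukocytes, had 7.15, 6.69, 3.97 and 4.16 CPM in controls and 21.5, 9.92 and 15.4 CPM in LPS mice, without overlap, and rose (log2 fold change 1.52, SE 0.29, adjusted p = 0.00197). Aif1 (ENSMUSG00000024397), the actin-binding protein IBA1, overlapped between the groups, at 6.37, 6.0, 4.09 and 2.42 CPM and 10.9, 7.28 and 5.35 CPM, and was not called (log2 fold change 0.75, adjusted p = 0.135).

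The receptors for uptake moved in different directions. Msr1 (ENSMUSG00000025044), the class A scavenger receptor for modified lipoproteins and bacterial lipids, was at 8.77, 7.32, 8.31 and 6.39 CPM in controls and 73, 43.8 and 37.7 CPM in LPS mice. Its lowest LPS value is far above the controls, which lie close together, at 9.48, 5.69 and 4.9 times the control mean in mice 1 to 3, and Msr1 rose (log2 fold change 2.75, SE 0.22, adjusted p = 1.99e-06). Mrc1 (ENSMUSG00000026712), the mannose receptor CD206, also made by sinusoidal endothelium, was at 28.1, 47.6, 29 and 35.1 CPM in controls and 15.4, 13.8 and 10.2 CPM after LPS. All 3 LPS mice were below the controls, and mouse 1 did not stand apart from the others here. Mrc1 fell (log2 fold change -1.41, SE 0.22, adjusted p = 0.000409), to 44%, 39.6% and 29.2% of the control mean. The TAM receptors that help macrophages engulf dying cells, Mertk (ENSMUSG00000014361) and Axl (ENSMUSG00000002602), overlapped between the groups. Mertk was at 9.06, 12.7, 8.74 and 8.32 CPM in controls and 12.1, 8.12 and 11.3 CPM in LPS mice (log2 fold change 0.12, adjusted p = 0.742). Axl measured 14.1, 17, 7.15 and 9.14 CPM and 14.8, 9.08 and 9.59 CPM (-0.077, adjusted p = 0.88), and its fold change took the opposite sign when any of control mice 1 and 2 or LPS mice 2 and 3 was left out, at 0.012 (adjusted p = 0.984), 0.14 (adjusted p = 0.79), 0.053 (adjusted p = 0.941) and 0.023 (adjusted p = 0.979).

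All 4 Fc receptor and adaptor genes of the pan-macrophage group rose, and the call of 1 of them, Tyrobp, was lost under several alternatives. Fcgr1 (ENSMUSG00000015947), the high-affinity IgG receptor CD64, was at 1.49, 2.27, 1.83 and 0.919 CPM in controls and 11.9, 5.73 and 3.36 CPM in LPS mice. Its LPS mice are spread widely but all above the controls (log2 fold change 2.12, SE 0.44, adjusted p = 0.00337). Without LPS mouse 1 its log2 fold change was 1.49 (adjusted p = 0.0309). Fcgr3 (ENSMUSG00000059498), the low-affinity receptor CD16 shared with neutrophils and NK cells, gave 3.96, 4.99, 2.5 and 2.18 CPM and 22.1, 15.7 and 16.8 CPM, with no overlap (log2 fold change 2.42, SE 0.28, adjusted p = 3.82e-05). Fcer1g (ENSMUSG00000058715), the common gamma chain that carries the signal of both, was at 6.79, 5.05, 2.81 and 3.0 CPM in controls and 39.7, 14.5 and 17 CPM in LPS mice. LPS mouse 1 was well above mice 2 and 3, which were themselves above the controls (log2 fold change 2.44, SE 0.37, adjusted p = 0.000398). The value without LPS mouse 1 was 1.85 (adjusted p = 0.00158). Tyrobp (ENSMUSG00000030579), the adaptor DAP12 used by TREM2 and other receptors, was at 3.61, 6.0, 2.93 and 2.18 CPM in controls and 11.5, 6.18 and 6.16 CPM after LPS. LPS mice 2 and 3 lay just above control mouse 2, and Tyrobp rose with a small margin (log2 fold change 1.12, SE 0.36, adjusted p = 0.0352). The call was lost without LPS mouse 1, at 0.76 (adjusted p = 0.183), and without control mice 1, 3 or 4, at 1.11 (adjusted p = 0.0573), 1.03 (adjusted p = 0.0622) and 0.92 (adjusted p = 0.0848). It was also lost without scaling factors, at 1.04 (adjusted p = 0.0557), and with the replicate block, at 0.92 (adjusted p = 0.0841), and over the alternatives its adjusted p ran from 0.00144 to 0.183.

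The 4 monocyte genes rose, with every LPS mouse above every control, and LPS mouse 1 was not the highest in 3 of them. Ly6c2 (ENSMUSG00000022584), which encodes the Ly6C antigen of inflammatory monocytes, was at 0.778, 0.252, 0.367 and 0.387 CPM in controls and 3.36, 5.09 and 4.61 CPM in LPS mice. All LPS mice were above all controls, at 7.54, 11.4 and 10.3 times the control mean, with mouse 1 the lowest of the 3 (log2 fold change 3.28, SE 0.45, adjusted p = 0.000179). Plac8 (ENSMUSG00000029322), a small cysteine-rich protein of myeloid cells, was at 9.98, 5.93, 4.83 and 4.74 CPM in controls and 43.5, 23.3 and 31.9 CPM in LPS mice. Control mouse 1 was the highest control, still below the lowest LPS mouse (log2 fold change 2.38, SE 0.28, adjusted p = 4.16e-05). S100a4 (ENSMUSG00000001020), a calcium-binding protein of motile cells, was near the limit of detection in controls, at 0.495, 0.126, 0.428 and 0.0968 CPM, and at 1.48, 2.19 and 1.87 CPM in LPS mice. The groups do not overlap, although control values rest on 7, 2, 7 and 2 reads (log2 fold change 2.69, SE 0.63, adjusted p = 0.00736). S100a6 (ENSMUSG00000001025), a related calcium-binding protein, was at 2.33, 2.46, 0.672 and 1.16 CPM and 3.69, 5.15 and 4.73 CPM, with LPS mouse 1 the lowest of its group (log2 fold change 1.45, SE 0.43, adjusted p = 0.0253). Its call was lost without control mouse 4, at 1.30 (adjusted p = 0.0658), without LPS mouse 2, at 1.35 (adjusted p = 0.093), and without LPS mouse 3, at 1.42 (adjusted p = 0.0799). With LPS mice 2 and 3 summed it was 1.40 (adjusted p = 0.0749) and with the replicate block 1.43 (adjusted p = 0.0588), both not called, and its adjusted p ran from 0.00279 to 0.093 over the alternatives.

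Summed over the 4 genes, the level was 13.6, 8.77, 6.29 and 6.39 CPM in controls and 52, 35.8 and 43.1 CPM in LPS mice 1 to 3, with Plac8 the most abundant. Neutrophil markers moved with these genes. All 8 tested of 10 neutrophil markers rose, and their summed level was 2.9, 2.46, 1.16 and 2.56 CPM in controls and 211, 158 and 158 CPM in LPS mice. S100a9 was the most abundant, at 2.05, 1.26, 0.611 and 0.774 CPM in controls and 103, 73.6 and 72.4 CPM in LPS mice (log2 fold change 6.18, SE 0.30, adjusted p = 2.78e-08). S100a8 rose alongside it (log2 fold change 6.53, adjusted p = 2.3e-08), Retnlg was at least 51.3-fold higher, and Ngp, with no read in any control, was at least 84.8-fold higher, where 3 reads are assumed in each control. The median log2 fold change of the list was 6.42, or 5.53 with genes at 3 reads or fewer in each control set to that bound. Ly6g, the antigen that defines neutrophils in the mouse, had no read in the controls and 7, 0 and 1 reads in LPS mice 1 to 3. The part of neutrophil RNA in Plac8, S100a4, the Fc receptor genes and the other shared genes was not tested.

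Monocyte recruitment genes and further inflammatory monocyte genes, a list of 14, rose in 10 of 13 tested, with a median log2 fold change of 4.80, or 4.76 with bounds. Chil3, a chitinase-like protein, was at 0, 0.316, 0 and 0 CPM in controls and 23.6, 25.9 and 29.6 CPM in LPS mice, with reads in 1 control mouse alone (log2 fold change 8.32, SE 0.51, adjusted p = 1.78e-07). The integrin subunit Itgam (CD11b), with the highest mean CPM of the list in the LPS mice but not in controls, was at 1.56, 0, 0.305 and 0.242 CPM and 53.2, 35.4 and 36.1 CPM (log2 fold change 6.39, SE 0.53, adjusted p = 2.28e-06). Both genes were above all controls in all LPS mice. Control mouse 1 held most control reads of Itgam, 22 against 0, 5 and 5, so the size of its fold change depends on that mouse. Ccl2, the chemokine that draws monocytes from the marrow, gave 0.849, 0.189, 0.55 and 1.02 CPM in controls and 52.4, 14.9 and 21.7 CPM in LPS mice, highest in mouse 1 (log2 fold change 5.47, SE 0.49, adjusted p = 4.24e-06). The lectin receptor gene Clec4e was at least 35.3-fold higher (adjusted p = 8.56e-07). Ccr2, the receptor for CCL2, was not called, at 2.62, 3.98, 1.16 and 2.85 CPM in controls and 2.67, 5.28 and 2.62 CPM in LPS mice, which overlap (log2 fold change 0.40, adjusted p = 0.538). Cx3cr1 and Thbs1 also overlapped and were not called (log2 fold changes -0.39 and -0.015, adjusted p = 0.664 and 0.985). The part of neutrophil RNA in the genes of this list was not tested, so its median is not a measure of monocytes alone.

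Of the 15 tested activation genes 10 rose, and Cd9, Spp1, Ms4a7, Itgax and Csf1 were not called. Lgals3 (ENSMUSG00000050335), the secreted lectin galectin-3, was at 2.33, 4.23, 2.08 and 1.02 CPM in controls and 17.8, 7.67 and 6.47 CPM in LPS mice. It rose (log2 fold change 2.16, SE 0.45, adjusted p = 0.00332) in all 3 LPS mice, most in mouse 1, and without that mouse the value was 1.56 (adjusted p = 0.0255). Gpnmb (ENSMUSG00000029816), a glycoprotein of lysosome-rich macrophages, was low, at 0.566, 0.0631, 0.122 and 0.242 CPM in controls and 2.86, 1.09 and 1.62 CPM in LPS mice. The LPS mice were above the controls, of which mouse 1 was highest (log2 fold change 2.91, SE 0.69, adjusted p = 0.00789). The call was lost without LPS mouse 1, at 2.45 (adjusted p = 0.0546), and without control mouse 1 the value was 3.59 (adjusted p = 0.00272), in a range of 0.000762 to 0.0546 for the adjusted p over the alternatives. Cd44 (ENSMUSG00000005087), the hyaluronan receptor, was at 7.29, 5.62, 11.1 and 3.44 CPM in controls and 36.3, 14 and 20.2 CPM in LPS mice, without overlap (log2 fold change 1.79, SE 0.37, adjusted p = 0.0031). Cd9 (ENSMUSG00000030342), a tetraspanin, was at 22.6, 17.5, 18.6 and 23.4 CPM and 42.5, 40.4 and 33.7 CPM, and every LPS mouse was above the controls. The adjusted p was 0.000856, but the log2 fold change of 0.92 (SE 0.16) was under the threshold of 1. Without LPS mouse 3 it passed, at 1.02 (adjusted p = 0.00222).

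Spp1 (ENSMUSG00000029304), which encodes osteopontin, was at 234, 96.4, 64.2 and 99.7 CPM in controls and 117, 134 and 132 CPM in LPS mice. Control mouse 1 was higher than every other mouse and the groups overlap (log2 fold change 0.047, adjusted p = 0.937). The sign turned without control mice 2, 3 or 4, at -0.071 (adjusted p = 0.918), -0.17 (adjusted p = 0.701) and -0.050 (adjusted p = 0.941). The other controls were all below every LPS mouse, and with a mouse left out the value ran up to 0.55, not called. Over the alternatives the adjusted p of Spp1 ran from 0.0372 to 0.988. The same control mouse had the highest control levels of the bile duct markers Krt19, Krt7, Epcam and Sox9, at 6.58, 3.18, 6.3 and 12.5 CPM. Of these 4 Sox9 rose (log2 fold change 1.49, adjusted p = 0.00736) and the others were not called. The part of bile duct RNA in Spp1, Cd9 and Cd44 was not tested. Trem2 (ENSMUSG00000023992), a lipid receptor that signals through DAP12, had too few reads for the edgeR fit of all 7 mice, at 0.141, 0.126, 0 and 0.0484 CPM and 0.138, 0.451 and 0.56 CPM. Ctsk (ENSMUSG00000028111), a collagen-degrading protease, was likewise left out of that fit, at 0.849, 0.189, 0.55 and 0.532 CPM and 0.369, 0.193 and 0.436 CPM. Both genes overlap between the groups. With DESeq2 neither was called, at 2.31 (adjusted p = 0.238) for Trem2 and -0.65 (adjusted p = 0.679) for Ctsk. Ctsk was also not called with LPS mice 2 and 3 summed, at -0.61 (adjusted p = 0.692).

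Pirb, Ms4a6c, Sirpa and Lilrb4a, further membrane proteins of the activation group, also rose. Pirb (ENSMUSG00000058818), an inhibitory receptor for MHC class I, was at 1.84, 2.02, 2.08 and 1.31 CPM in controls and 20.8, 18 and 19.6 CPM in LPS mice. Both groups are tight and far apart, with the LPS mice at 11.5, 9.93 and 10.8 times the control mean (log2 fold change 3.43, SE 0.22, adjusted p = 2.43e-07). Ms4a6c (ENSMUSG00000079419), a membrane protein of monocytes and macrophages, was at 0.425, 0.631, 0.367 and 0.919 CPM in controls and 9.72, 6.83 and 6.6 CPM in LPS mice. Its LPS mice were all above the controls (log2 fold change 3.68, SE 0.37, adjusted p = 1.25e-05). Sirpa (ENSMUSG00000037902), the receptor for the CD47 signal that restrains phagocytosis, was at 11.4, 13.6, 9.47 and 6.14 CPM in controls and 56.3, 32.3 and 28.1 CPM in LPS mice, with mouse 1 highest and no overlap (log2 fold change 1.94, SE 0.28, adjusted p = 0.000232). Lilrb4a (ENSMUSG00000112148), an inhibitory receptor of myeloid cells, was at 2.05, 3.6, 1.83 and 2.37 CPM and 11, 4.96 and 4.36 CPM. LPS mouse 3 was the LPS mouse nearest to the controls (log2 fold change 1.46, SE 0.37, adjusted p = 0.012), and the call was lost without LPS mouse 1, at 0.92 (adjusted p = 0.101). The alternatives gave it an adjusted p of 0.000139 to 0.101. Ms4a7 (ENSMUSG00000024672), a relative of Ms4a6c, and Itgax (ENSMUSG00000030789), the integrin CD11c, were low, overlapped between the groups and were not called (log2 fold changes 1.18 and 0.88, adjusted p = 0.213 and 0.42). Without LPS mouse 1 the value of Ms4a7 was 0.40 (adjusted p = 0.762), and without LPS mouse 3 that of Itgax was 0.40 (adjusted p = 0.822).

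A pair of transporters and a cytokine receptor chain rose too. Slc11a1 (ENSMUSG00000026177), the phagosomal metal transporter NRAMP1 that limits growth of engulfed bacteria, was at 4.53, 2.97, 1.96 and 2.37 CPM in controls and 17, 9.86 and 13.1 CPM in LPS mice. No LPS mouse lay within the control range (log2 fold change 2.18, SE 0.30, adjusted p = 0.000161). Slc15a3 (ENSMUSG00000024737), an endolysosomal carrier of peptides and histidine, was at 1.42, 1.89, 1.71 and 1.5 CPM in controls and 12.1, 4.96 and 5.79 CPM in LPS mice. Mouse 1 was again the highest, and all 3 were above the controls (log2 fold change 2.22, SE 0.35, adjusted p = 0.000476). Csf2rb (ENSMUSG00000071713), the common beta chain of the GM-CSF receptor and related cytokine receptors, was at 3.89, 6.06, 4.77 and 4.84 CPM in controls and 19.7, 14.9 and 13.6 CPM in LPS mice, without overlap (log2 fold change 1.72, SE 0.21, adjusted p = 7.76e-05). Csf1 (ENSMUSG00000014599), the growth factor that acts on Csf1r, was at 13.7, 8.77, 5.68 and 6.77 CPM and 17.1, 11.1 and 10.0 CPM. Control mouse 1 was within the LPS range, and Csf1 was not called (log2 fold change 0.56, adjusted p = 0.192). Of 5 other tested colony-stimulating factor and receptor genes, Csf3, Csf3r and Csf2rb2 rose (2 of the list without LPS mouse 1), with a list median of 2.51. Csf3r, the G-CSF receptor of neutrophils, with the highest CPM of the list in the LPS mice but not in controls, was at 2.33, 1.64, 0.794 and 0.968 CPM and 13.2, 8.18 and 5.48 CPM (log2 fold change 2.66, SE 0.41, adjusted p = 0.000375), and Csf3 was at least 7.3-fold higher.

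**Figure D2:**
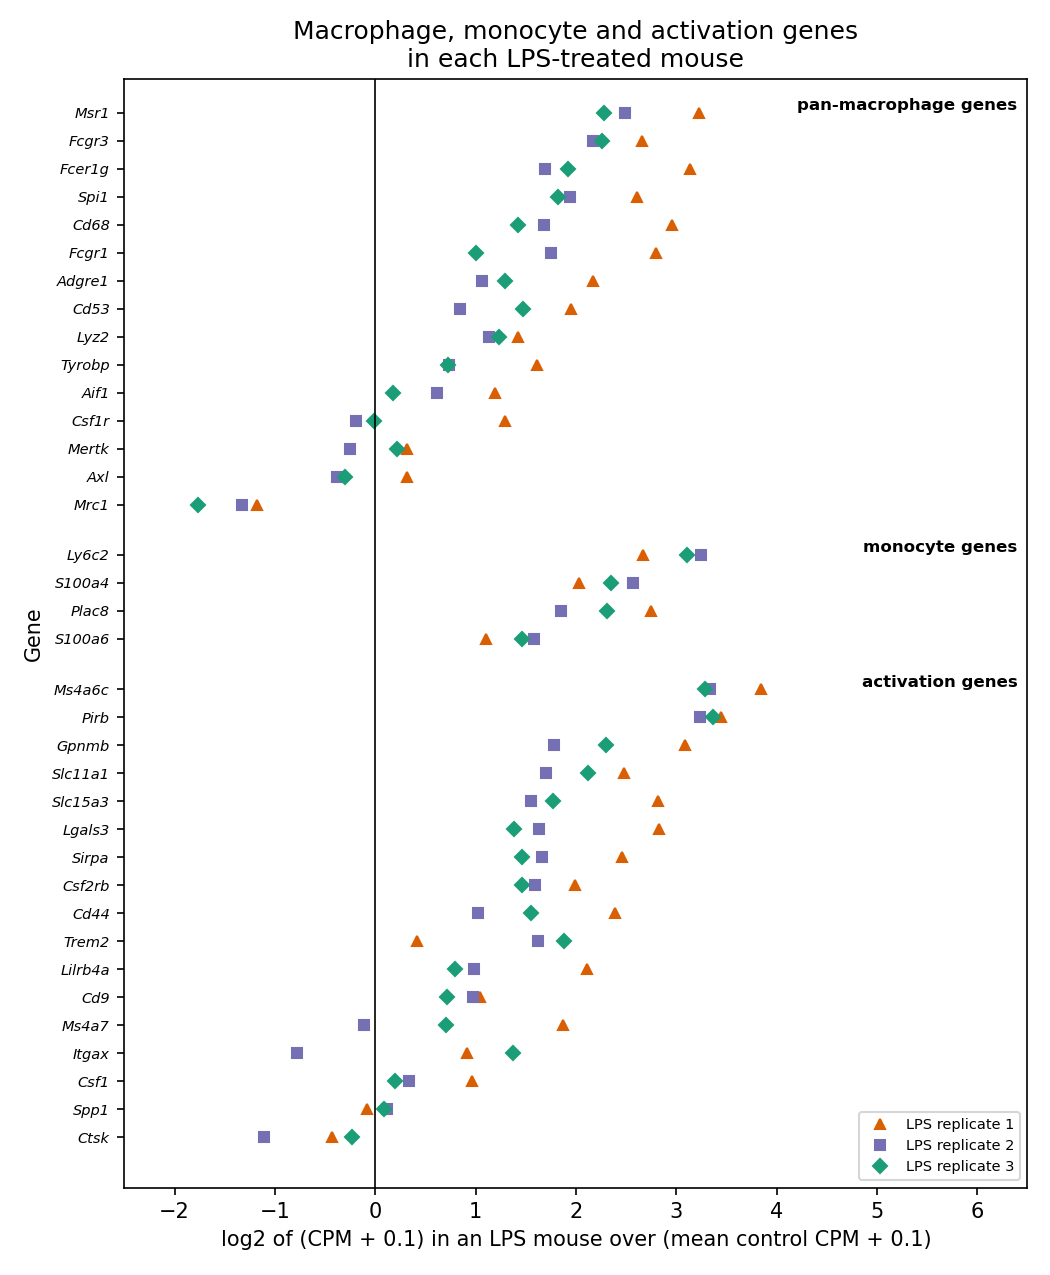
Macrophage, monocyte and activation genes in each LPS mouse, as the log2 ratio of CPM to the mean of the 4 controls, with 0.1 CPM added to both. Each row is a gene and each marker an LPS mouse, and the vertical line is the control mean. Mrc1 is left of the line in all 3 mice (0.44, 0.396 and 0.292 times the control mean), and Pirb is right of it in all 3 (11.5, 9.93 and 10.8 times).

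Levels of different genes were compared per kilobase of exon, as CPM per kb. By the mean of the controls Spp1 ranked 1 of the 44 members, at 75 CPM per kb, followed by Lyz2 at 23.9, Clec4f at 22 and Cd5l at 16.6. The order of Lyz2 and Clec4f was not the same in each control mouse. After LPS Marco ranked 1, at 93.8 CPM per kb, with Spp1 at 77.4 and Lyz2 at 57.7, and Clec4f was at rank 16 with 4.97, or at ranks 14, 25 and 22 in LPS mice 1 to 3, with 9.75, 2.22 and 2.95. Marco held rank 1 in LPS mouse 1 alone, at 213 CPM per kb, and was at rank 3 in mice 2 and 3, at 34.5 and 34.1, where Spp1 was first at 81.4 and 79.8 and Lyz2 next at 52.6 and 56.3. The labelled tissue was checked with Alb, the serum albumin gene of hepatocytes, which was abundant in each mouse, at 37958, 37776, 61686 and 50492 CPM in controls and 24642, 24659 and 24693 CPM in LPS mice.

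Other genes of Kupffer cells that are not among the 44 gave a mixed picture. Of 12 tested, C1qb, Cfp and Hmox1 rose and Ccl24 fell, with a median log2 fold change of 0.24, and LPS mouse 1 was the highest LPS mouse in 10. C1qb, a subunit of complement C1q, was at 14.9, 14.8, 15.3 and 10.4 CPM in controls and 54.4, 21 and 20.2 CPM in LPS mice (log2 fold change 1.21, SE 0.31, adjusted p = 0.0115), and Hmox1, which degrades haem, was at 5.8, 7.13, 7.27 and 5.13 CPM and 99.5, 54.8 and 52.4 CPM (log2 fold change 3.45, SE 0.24, adjusted p = 5.15e-07). Neither gene overlaps between groups, and which liver cells carried the rise of Hmox1 was not tested. C1qb was at 3.92 times the control mean in LPS mouse 1, but at 1.51 and 1.45 times in mice 2 and 3. C6, a complement component also made by hepatocytes and the most abundant of the list, was not called (log2 fold change -0.87, adjusted p = 0.00216). Without LPS mouse 1 the list had 1 rise and 2 falls, and with LPS mice 2 and 3 summed 5 rises. The fall of Ccl24 (adjusted p = 0.0408) is not firm: the list had no fall in the summed fit, nor when control mouse 1 or 2 or LPS mouse 2 or 3 was left out. Among 13 macrophage transcription factors Spic and Runx1 rose and 11 were not called, with a median of 0.12. The list had 1 rise without LPS mouse 1, 3 without control mouse 2, and 1 fall without control mouse 4. Spic, the factor of macrophages that recycle iron from red blood cells, was at 1.98, 0.694, 1.22 and 1.35 CPM in controls and 26.4, 12.4 and 12.3 CPM in LPS mice, well apart (log2 fold change 3.70, SE 0.36, adjusted p = 9.55e-06). Nr1h3, which encodes the Kupffer cell factor LXR alpha and was the most abundant, was at 48.3, 62.4, 62 and 55.6 CPM and 69.4, 61.3 and 55.9 CPM (log2 fold change 0.12, SE 0.15, adjusted p = 0.583), with overlap. Of 8 tested scavenger and efferocytosis genes Cd36 and Pros1 rose, with a median of 0.49; Lrp1 was the most abundant (0.46, adjusted p = 0.0273).

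Several members have close relatives whose reads may be hard to tell apart, and how reads fitting more than 1 gene were counted is not stated. Of 25 relatives listed, 20 had a row and 8 were tested, of which 6 rose (5 without LPS mouse 1), with a median of 2.89. Without control mouse 3, 1 fell. Ly6c1, the neighbour of Ly6c2, was at 0, 0, 0.244 and 0.242 CPM in controls and 2.21, 0.773 and 1.37 CPM in LPS mice (log2 fold change 3.43, SE 0.86, adjusted p = 0.0111), and Ms4a6d, the relative with the highest CPM in the LPS mice but not in controls, was at 2.48, 2.15, 0.856 and 1.26 CPM and 37.2, 17.6 and 20.4 CPM (log2 fold change 3.92, SE 0.35, adjusted p = 4.49e-06). Both were above the controls in all LPS mice. Lilrb4b, the relative of Lilrb4a, also rose (log2 fold change 2.19, adjusted p = 0.000876).

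Markers of several further cell types were counted beside the members, and their part in the results was not tested. Erythroid genes fell in 4 of 5 tested, with a median log2 fold change of -1.41 and a summed level of 307, 183, 232 and 179 CPM in controls and 136, 53.9 and 53.8 CPM in LPS mice. The number that fell was 1 without LPS mouse 2, without LPS mouse 3 or with both summed, and 2 without control mouse 1, 2 or 3 or with DESeq2. Hbb-bs was the most abundant erythroid gene, and the sum was higher in LPS mouse 1 than in the others. Alas2, an enzyme of haem synthesis in red cell precursors and the gene with the smallest p, was instead lowest in LPS mouse 1, at 66.4, 62, 79.6 and 78.5 CPM in controls and 23.5, 30.7 and 26.9 CPM in LPS mice (log2 fold change -1.41, SE 0.16, adjusted p = 3.09e-05). Stellate cell and fibroblast genes fell in 2 of 8, Lrat and Reln (median -0.21, 1 without control mouse 4 or LPS mouse 2, 3 without control mouse 3), with sums of 560.0, 399.5, 241 and 378 CPM in controls and 339, 279 and 262 CPM in LPS mice, led by Dcn. Hepatocyte genes fell in 1 of 7, Ttr (median -0.51, 2 without control mouse 1 or 2), and summed to 61147, 58742, 81537 and 69330.1 CPM and 37105, 39812 and 39603 CPM, led by Alb. Cps1 and Hnf4a were above all controls in all LPS mice and not called (log2 fold changes 0.62 and 0.74, adjusted p = 0.0527 and 0.0096). Alb and Apoa1 were below all controls in all LPS mice and not called, and Apoc3 and Ass1 overlapped. The endothelial gene Clec4g had the deepest fall of its list, from 22.1, 31.4, 23 and 25.1 CPM to 1.29, 0.322 and 1.87 CPM (log2 fold change -4.43, SE 0.37, adjusted p = 2.23e-06), while the median of the list was -0.44 and Stab2, with the highest mean CPM of the list over the 7 mice though not within either group, was not called (-0.54, adjusted p = 0.122). Dendritic cell genes were tested for 2 of 6 in the edgeR fit of all 7 mice, and these were not called (median -0.17). The list summed to 11.3, 8.02, 7.39 and 7.02 CPM in controls and 7.05, 10.2 and 4.48 CPM in LPS mice, led by Zbtb46. T and NK cell genes were tested in that fit for Cd3g alone, not called (-0.75, adjusted p = 0.483), with sums of 2.41, 2.02, 2.99 and 1.5 CPM and 3.09, 1.87 and 2.68 CPM. DESeq2 tested 4 of the dendritic cell genes and 6 of the T and NK cell genes, and called none.

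PU.1, the product of Spi1, binds DNA around a purine-rich core, and promoters of the members were searched for the letters GAGGAAGT on either strand (ACTTCCTC on the other) in the 250 bases before the gene start. Promoter entries were available from RefSeq, build GRCm38.p6, for 35 of the 44 members, and 3 of them (8.57%) held the letters, against 755 of 27025 genes (2.79%). The 3 promoters, of the monocyte gene Ly6c2 (chr15:75111972-75112221, minus strand), of Spp1 (chr5:104434861-104435110, plus strand) and of Pirb (chr7:3720383-3720632, minus strand), are shown as the only ones that held the letters. Ly6c2 and Pirb rose and Spp1 was not called, and a link between the letters and the response was not tested. Each promoter is written along the strand of its gene, with the match in capitals, which begins 108, 113 and 120 bases before the start in that order. A match describes the letters and does not show binding.
Ly6c2: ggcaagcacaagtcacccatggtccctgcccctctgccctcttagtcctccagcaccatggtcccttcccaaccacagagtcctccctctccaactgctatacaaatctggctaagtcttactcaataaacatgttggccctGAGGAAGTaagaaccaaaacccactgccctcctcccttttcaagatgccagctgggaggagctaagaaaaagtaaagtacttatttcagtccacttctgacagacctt
Spp1: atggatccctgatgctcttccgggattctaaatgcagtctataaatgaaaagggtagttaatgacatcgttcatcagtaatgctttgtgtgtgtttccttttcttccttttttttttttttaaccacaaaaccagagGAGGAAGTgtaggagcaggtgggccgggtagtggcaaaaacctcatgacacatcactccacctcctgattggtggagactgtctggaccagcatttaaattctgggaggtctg
Pirb: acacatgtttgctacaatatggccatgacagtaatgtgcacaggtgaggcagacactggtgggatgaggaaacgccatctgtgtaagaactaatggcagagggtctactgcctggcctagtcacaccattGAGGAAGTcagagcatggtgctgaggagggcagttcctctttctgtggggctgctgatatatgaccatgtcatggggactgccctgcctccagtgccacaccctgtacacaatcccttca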

How the data were processed

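The authors deposited raw counts of reads per gene, whole numbers without normalization, for 7 liver libraries. The submitters' processing notes name cutadapt 1.9.1, HISAT2 2.2.1, HTSeq 0.6.1, DESeq2 1.34.0 and the genome build GRCm39; the gene annotation and the handling of reads that match several genes are not given. From the counts, genes were filtered with filterByExpr, scaled by TMM and compared, LPS against control, with the quasi-likelihood test of edgeR 4.0.16 in R 4.3.3, with Benjamini-Hochberg adjustment over the genes tested. All p-values rest on the labels of the samples. The SE comes from the F statistic, and CPM uses the TMM-scaled library size. A count of 3 corresponds to 0.138 to 0.212 CPM, a floor that covers counting error alone, because copies of 1 molecule made by PCR are counted more than once. Exon lengths come from GENCODE and promoters from RefSeq. Values in every mouse are given for members called in either direction and for Clec4f, Timd4, Adgre1, Csf1r, Lyz2 and Ly6c2. Many other members are given in the same way. In the further lists shown, the counts, the median, the most abundant gene (by mean CPM over the 7 mice, not per length) and called genes with the smallest p are named, together with some genes chosen after their values were seen. The members and the lists were chosen with earlier results of these data known. As alternatives, the counts were also fitted with DESeq2 1.42.0, with RLE factors, without scaling factors, and with mitochondrial and very abundant genes left out of library sizes. Further fits used no filter, a stricter filter, an adjusted p of 0.01, no threshold on the fold change, a block for the replicate number, LPS replicates 2 and 3 summed, and each mouse left out. The methods were tested on simulated counts.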

Additional observations from a re-analysis of the deposited data

Results flagged for a closer look

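Of 48 groups of control values checked for a mouse far from the others, 1 stood out. Mertk in control mouse 2 was at 12.7 CPM, with the nearest control at 9.06 CPM, a gap of 0.832 of the whole range of the controls. Chance alone gives such a value in about 1 of 20 groups, and groups of 3 LPS mice were not checked.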

How the results depend on the processing

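Over the 17 alternatives, most member fold changes kept their direction and their side of the threshold, in 260 fits with a mouse left out and 388 others. With a mouse left out 9 lost a call, 13 changed sign, and Timd4, Vsig4, Cd5l and Cd9 each gained a call once. Elsewhere 7 lost a call, 1 gained one and 4 changed sign. The calls lost were those of Tyrobp, S100a6, Lilrb4a and Gpnmb. Without scaling the median log2 fold change of the genes tested moved from -0.014 to -0.13, and 24 members rose and 2 fell. Over the 13683 genes, 926 rose and 1177 fell without scaling, against 1068 and 1000 with it. With the replicate block 23 members rose and 2 fell, although the shared numbers belong to different animals and do not pair them. That fit called 995 of the 13683 genes higher and 926 lower. With each mouse left out, the number of members that fell ran from 2 to 5 and of resident genes that fell from 1 to 4, both highest without LPS replicate 1. Of all genes tested, 792 to 1059 fell in these fits, and 1052 without LPS replicate 1. With DESeq2 0 resident genes rose, because Marco received no adjusted p there. At 10 counts or more in every sample, 2 monocyte genes rose, the 2 that were then tested, and 693 of all genes rose. With no fold change threshold 1825 genes rose and 1773 fell. These fold changes, none called in all 7 mice, changed sign: Timd4, at -1.69 with the replicate block and -3.52 to 0.75 with a mouse left out; Cd5l, at 0.24 with LPS replicates 2 and 3 summed and -3.04 to 0.27 with a mouse left out; Axl, at 0.036 summed and -0.33 to 0.14; Spp1, at -0.041 without scaling and -0.17 to 0.55; Folr2, from -1.07 to 0.67; and Csf1r, from -0.094 to 0.79. The cause of these changes was not tested. With 3 LPS mice, 2 of them closer to each other than any other pair, the spread of the resident genes rests on 1 mouse, and genes with few counts, such as Trem2, are not resolved at this depth.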
